A study of Mus musculus with 7 samples.

Results

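Nucleoporins and nuclear transport receptors were described in the ribosome-bound RNA of cholinergic cells of the mouse ventral striatum. The genes were taken by symbol: Nup followed by a digit, Kpna, Kpnb, Ipo followed by a digit, Xpo, Tnpo and Ranbp. The rule found 51 of the 22016 rows of the expression table, each with a symbol of its own. A further gene of the same rule, Nup98, was read from the authors' deposited table of differences, and since its level per library was not analysed here its replicate spread is not given. The 7 libraries came from translating ribosome affinity purification, which pulls down tagged ribosomes and the RNA on them, here from cells in which the Chat promoter drives the tag. Each library was a pool of 6 ventral striata of 3 mice on the C57/Bl6N background, of both sexes, aged 8 to 12 weeks and untreated. All mice carried the ChAT bacTRAP transgene and the floxed p11 gene (fl/fl), S100a10. The 4 KO pools also carried ChAT Cre, whereas the 3 WT pools were littermates without Cre, so that an effect of Cre and one of the deletion cannot be told apart.

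The nuclear pore is a channel through the nuclear envelope, built from nucleoporins that form an outer ring, an inner ring, a central channel rich in phenylalanine-glycine repeats, cytoplasmic filaments and a nuclear basket. Transport receptors of the karyopherin family (importins, transportins and exportins) carry cargo through the channel, and the small GTPase Ran, bound to GTP in the nucleus, loads exportins and unloads importins. In neurons these receptors also bring signals from axons and synapses to the nucleus.

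S100a10 RNA was lower in KO (136 ± 41.5 FPKM, SD, n = 4) than in WT (350 ± 32.6 FPKM, SD, n = 3; limma adjusted p = 0.0098). FPKM count fragments relative to the length of the gene and to the size of the library, so that levels of different genes can be set side by side. Cholinergic markers were abundant in every library, though Chat stood at 128.0 FPKM in KO1 and at 208.3 to 306.4 FPKM in the other libraries. The 10 markers summed to between 1494.2 and 1605.0 FPKM in WT and between 1187.2 and 1460.2 FPKM in KO. That gap rested on Slc18a3, the vesicular acetylcholine transporter, without which the other 9 summed to between 909.5 and 1082.1 FPKM in WT and between 921.8 and 1099.4 FPKM in KO. The 6 microglial markers summed to at most 1.9 FPKM in any library, and the 6 endothelial and mural markers to between 6.2 and 10.3 FPKM. Of the 6 other interneuron markers, the sum was 15.5 to 19.0 FPKM in WT and 94.7, 17.7, 21.5 and 36.7 FPKM across KO1 to KO4. The 7 medium spiny neuron markers summed to 204.7 to 257.3 FPKM in WT and to 182.4 to 355.6 FPKM in KO, again highest in KO1, as were the sums of the 6 oligodendrocyte (69.9 FPKM, elsewhere 31.1 to 45.8) and 7 astrocyte markers (75.3 FPKM, elsewhere 49.8 to 63.7). The part of these markers in the results below was not tested. In such pooled RNA, fewer cells of a type and less RNA per cell cannot be told apart.

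The transport receptors stood above most of the nucleoporins that the rule took on the FPKM scale. Of the 51 genes, 47 reached 1 FPKM as the mean of the 7 libraries and were tested. Their means ran from 1.0 FPKM for Nup188, of the inner ring, to 63.5 FPKM for Ranbp1, a Ran-binding cofactor, with a median of 10.4 FPKM (9.54 FPKM over all 10089 tested rows). The 24 tested importins, transportins and exportins had a median level of 14.9 FPKM, and the 19 tested nucleoporins, with Ranbp2 among them, one of 3.74 FPKM. Of these 19, 13 had a mean under 5 FPKM. Kpna7, an importin alpha of oocytes and early embryos, and Nup62cl were listed at 0.0 FPKM in the 7 libraries. Nup210l reached at most 0.3 FPKM and the readthrough locus Nup62-il4i1 at most 0.3 FPKM.

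**Figure D1:**
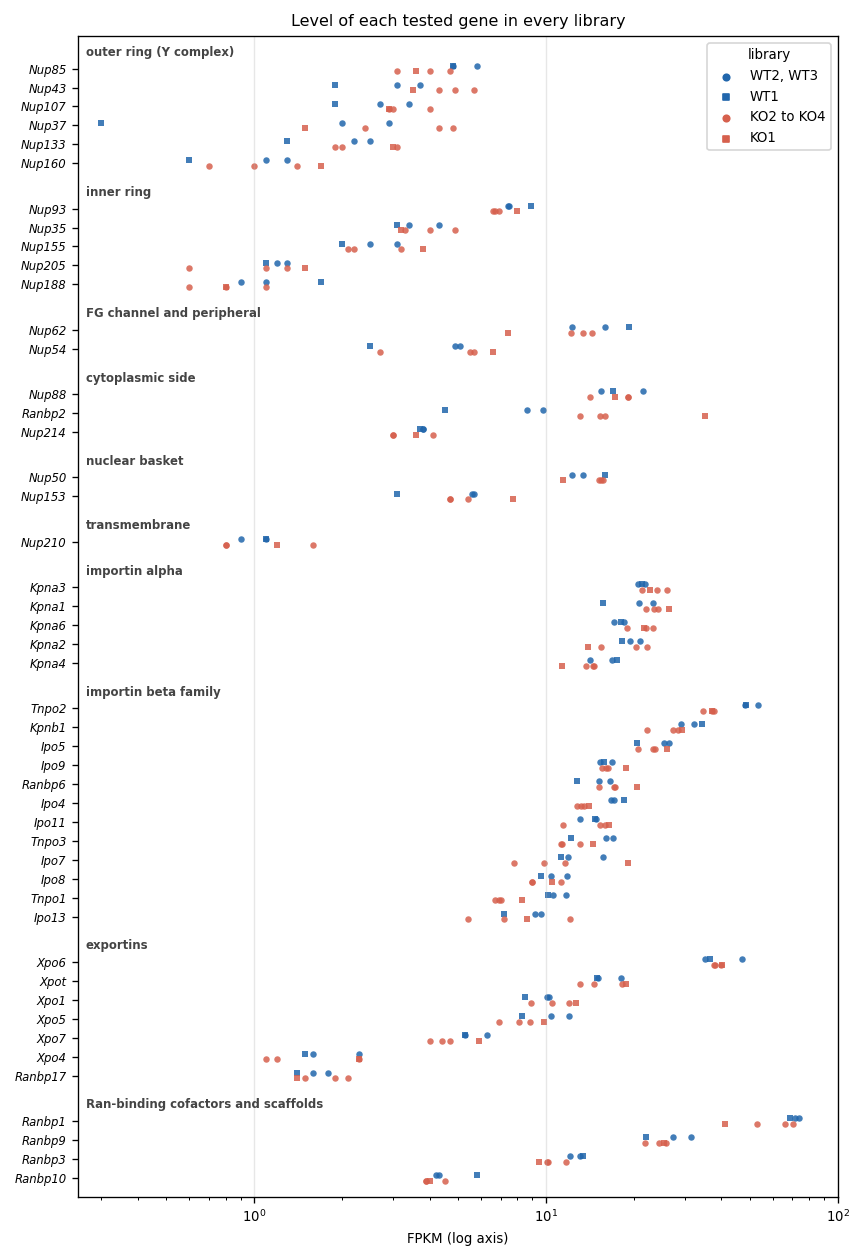
FPKM of the 47 tested genes on a log axis, 1 point per library, grouped by role and ordered by mean level; WT is blue, KO is red, and squares mark WT1 and KO1. Most structural nucleoporins lie under 10 FPKM while Tnpo2 and Xpo6 lie above 30 FPKM in every library, and the WT and KO points overlap for 40 of the 47 genes.

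None of the 47 tested genes passed the limma test between KO and WT. Nup98, called in the authors' deposited table, was not among these 47. With limma over all tested rows, 0 of the 47 had an adjusted p under 0.05, where 1.74% of all tested rows did, and the smallest adjusted p was 0.078. Before adjustment, limma gave p under 0.05 for 5 of the 47 (10.6%), beside 18.8% of all tested rows: Ranbp2 and Nup43 with higher means in KO (10.1% of all tested rows) and Tnpo1, Tnpo2 and Ipo4 with lower means (8.69%). WT and KO values did not overlap for 7 genes, 14.9% of the 47 and 17.4% of all tested rows. Of these, Ranbp2 and Kpna6 were higher in the KO libraries (9.11% of all tested rows were) and, beside 8.29% of all tested rows, Tnpo1, Tnpo2, Ipo4, Ranbp3 and Nup85 were lower. The median log2 fold change, log2(FPKM + 1) in KO less that in WT, was -0.04 for the 47 genes, with 21 positive and 26 negative. Over all tested rows it was 0.03, with 5388 positive and 4701 negative. Counts of signs in the role groups below come from genes of the same libraries and are a description. The median size of the fold change, whatever its sign, was 0.17 for the 47 genes and 0.22 for all tested rows. Fold changes past 0.5 in either direction were found in 4 of the 47, Ranbp2, Nup37, Nup43 and Tnpo1, and in 14.1% of all tested rows. The count of 0 was not kept under every alternative: 4 genes passed with array weights (Ranbp2, Tnpo1, Tnpo2 and Ipo4), 2 with trends in GC content and transcript length removed (Ranbp2 and Tnpo1) and 1 without KO1 (Ranbp2). Of all rows, 16.7%, 1.43% and 3.74% passed under these 3 alternatives. With GC and length trends removed, the fold change was larger in size than in the main comparison for Tnpo1 (-0.67). It was smaller for Ranbp2 (1.08), Tnpo2 (-0.31), Ipo4 (-0.22) and Nup43 (0.31).

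**Figure D2:**
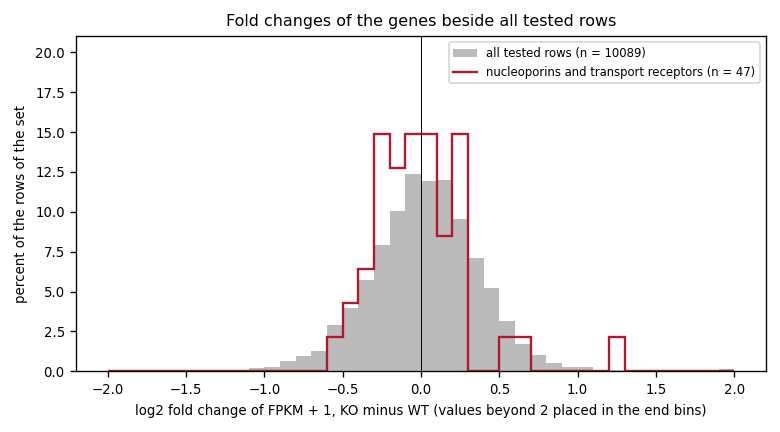
Share of rows in each bin of log2 fold change (KO minus WT, width 0.1) for all 10089 tested rows (grey) and the 47 tested nucleoporins and transport genes (red line). The 47 genes lie between -0.53 and 1.22, and of them Ranbp2 alone lies above 1.

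Ranbp2, the large protein of the cytoplasmic filaments of the pore that binds Ran and acts as a SUMO ligase, had the largest fold change of the 47 genes. Its level was 4.5, 8.6 and 9.8 FPKM across WT1 to WT3 and 35.2, 15.9, 15.3 and 13.1 FPKM across KO1 to KO4. The 4 KO libraries lay above the 3 WT libraries, WT1 was the lowest of all and KO1 stood far above the other KO libraries. WT averaged 7.63 ± 2.78 FPKM (SD, n = 3) and KO 19.9 ± 10.3 FPKM (SD, n = 4). This log2 fold change of 1.22 (SE 0.32, from 0.53 to 1.91 at 95% confidence) did not pass over all rows (limma adjusted p = 0.078). Permuting the libraries over the 2 groups, an exact two-sided test that doubles the p of the smaller tail, gave p = 0.0571. With that doubling it is the smallest p that the 35 splits of 3 against 4 libraries can give. Of the summed FPKM of the 22 nucleoporin rows of the rule, Ranbp2 made up 4.74, 7.8 and 9.94% across WT1 to WT3. Across KO1 to KO4 it made up 28.3, 14.0, 13.2 and 13.1%. These 22 rows leave out Nup98, Sec13, Pom121 and others.

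KO1, the library with the most Ranbp2, also had the highest sums of other interneuron and medium spiny neuron markers, with 51.0 FPKM of Sst where the other 6 libraries had 5.0 to 23.7 FPKM. KO4, second in Sst, had the lowest Ranbp2 of the KO libraries, and a link between these markers and Ranbp2 was not tested. Without KO1 the fold change was 0.92 and passed (limma adjusted p = 0.049), without WT1 it was 0.93 (adjusted p = 0.31), and without both libraries it was 0.63 (adjusted p = 0.069). In KO1, the difference from the other KO libraries rose with transcript length over all rows (Spearman's rho 0.46 across 10023 genes, which share each library and are not replicates), and the longest Ranbp2 transcript has 9608 bases with 40.6% GC. After each library's trends with GC content and transcript length were taken out, the fold change was 1.08 and passed (adjusted p = 0.032). With array weights, which gave KO1 and WT1 the lowest weights (0.297 and 0.392, against 4.46 for WT2), it was 0.85 (adjusted p = 0.0072). Over the 19 alternatives the adjusted p ran from 0.0072 to 0.31, and it was under 0.05 in 3 of them. Ranbp2 lies on chromosome 10 (58446920 to 58494356, plus strand, GRCm38), and 1.49% of its 31-mers occur in transcripts of other genes.

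**Figure D3:**
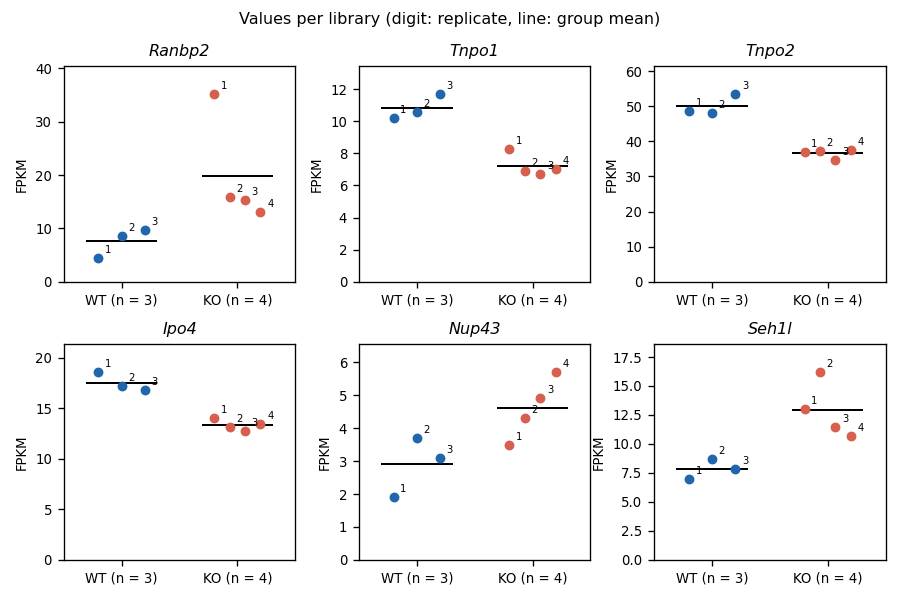
FPKM per library of Ranbp2, Tnpo1, Tnpo2, Ipo4, Nup43 and Seh1l, with WT in blue, KO in red, the replicate number beside each point and the group mean as a line. The groups do not overlap for Ranbp2, Tnpo1, Tnpo2, Ipo4 and Seh1l, and KO1 stands apart at 35.2 FPKM for Ranbp2.

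Tnpo1 and Tnpo2, the transportins that import RNA-binding proteins, had lower values in every KO library than in any WT library. Tnpo1 stood at 10.2, 10.6 and 11.7 FPKM across WT1 to WT3 and at 8.3, 6.9, 6.7 and 7.0 FPKM across KO1 to KO4. Its log2 fold change of -0.53 (SE 0.16, from -0.87 to -0.19 at 95% confidence) had a limma adjusted p of 0.11. Tnpo2 stood at 48.7, 48.2 and 53.5 FPKM across WT1 to WT3 and at 37.1, 37.2, 34.6 and 37.6 FPKM across KO1 to KO4. Its fold change of -0.44 (SE 0.13, from -0.73 to -0.16 at 95% confidence) had the same limma adjusted p, 0.11. For each of them the exact two-sided permutation p was 0.0571, and neither passed over all rows. The KO mean was 66.7% of the WT mean for Tnpo1 and 73.1% for Tnpo2, and the spread within a group was small beside that gap, with SDs of at most 0.777 FPKM for Tnpo1 and 2.93 FPKM for Tnpo2. The level of Tnpo2 was 4.47 to 5.39 times that of Tnpo1 within a library, in the 7 libraries, with a mean ratio of 4.63 in WT and 5.1 in KO. Tnpo3, which imports SR splicing factors, had overlapping values of 12.2, 16.1 and 17.0 FPKM in WT and 14.5, 13.1, 11.4 and 11.3 FPKM in KO (fold change -0.24, limma adjusted p = 0.46). In Tnpo1, 14.4% of the 31-mers occur in other genes, Gm6493 above all, so a part of its reads could be split.

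The promoter windows of Ranbp2, Tnpo1 and Tnpo2 are shown because these 3 genes had the smallest unadjusted p of the 47. The windows hold 250 bases before and 50 after the annotated start, from RefSeq (GRCm38.p6), and capitals mark matches on either strand to the GC box (GGGCGG), the CCAAT box (CCAAT), the ETS core (CCGGAA) or the TATA box (TATAAA). Where the table held more than 1 window, the one nearest the gene's start in the annotation was taken.
Ranbp2, chr10:58446602-58446901, plus strand: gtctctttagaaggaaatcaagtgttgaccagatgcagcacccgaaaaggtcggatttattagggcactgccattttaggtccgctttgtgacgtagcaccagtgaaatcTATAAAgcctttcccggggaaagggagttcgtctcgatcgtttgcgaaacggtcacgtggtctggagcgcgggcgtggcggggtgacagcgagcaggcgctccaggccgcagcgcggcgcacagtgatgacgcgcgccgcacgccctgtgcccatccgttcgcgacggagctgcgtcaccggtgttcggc
Tnpo1, chr13:98926335-98926634, minus strand: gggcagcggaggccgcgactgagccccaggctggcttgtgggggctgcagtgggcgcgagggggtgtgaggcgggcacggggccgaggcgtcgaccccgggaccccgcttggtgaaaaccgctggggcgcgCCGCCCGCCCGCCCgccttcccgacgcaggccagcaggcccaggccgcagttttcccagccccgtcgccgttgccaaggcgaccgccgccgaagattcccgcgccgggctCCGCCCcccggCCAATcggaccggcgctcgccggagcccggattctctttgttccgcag
Tnpo2, chr8:85036643-85036942, plus strand: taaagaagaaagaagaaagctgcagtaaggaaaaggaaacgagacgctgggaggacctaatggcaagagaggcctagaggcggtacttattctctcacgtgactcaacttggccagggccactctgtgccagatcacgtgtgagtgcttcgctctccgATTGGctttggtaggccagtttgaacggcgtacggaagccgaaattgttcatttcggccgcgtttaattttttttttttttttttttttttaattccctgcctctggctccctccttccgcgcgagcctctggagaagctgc
The Ranbp2 window held 1 TATA box match and 0 of the other 3 motifs, at 60.0% GC. The Tnpo1 window, at 76.3% GC, held 4 GC box matches, of which 3 overlap in 1 run, and 1 CCAAT match, whereas the Tnpo2 window, at 49.3% GC, held 1 CCAAT match alone. Of the 32851 windows in the table, 35.7% held a GC box, 37.4% a CCAAT box, 14.9% an ETS core and 13.6% a TATA box. For 40 of the 52 symbols there were 47 windows, with shares of 66.0%, 51.1%, 27.7% and 10.6%. A match describes the letters in the window and not a bound factor.

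Nup98 was the only gene of the rule in the authors' deposited table of genes with an adjusted p of at most 0.05. In the authors' deposited table its RNA was 8.68-fold higher in KO than in WT (log2 fold 3.12, adjusted p = 1.2e-22), the fourth smallest adjusted p of that table. The mean levels behind that fold are not given here. Nup98 is a channel nucleoporin with glycine-leucine-phenylalanine-glycine repeats that docks the mRNA export factor Rae1, and its longer transcript also encodes an outer ring protein. It lies on chromosome 7 (102119398 to 102210176, minus strand, GRCm38). Its promoter window is shown as that of the gene with the one deposited call of the family, with the same marks as above.
Nup98, chr7:102210117-102210416, minus strand: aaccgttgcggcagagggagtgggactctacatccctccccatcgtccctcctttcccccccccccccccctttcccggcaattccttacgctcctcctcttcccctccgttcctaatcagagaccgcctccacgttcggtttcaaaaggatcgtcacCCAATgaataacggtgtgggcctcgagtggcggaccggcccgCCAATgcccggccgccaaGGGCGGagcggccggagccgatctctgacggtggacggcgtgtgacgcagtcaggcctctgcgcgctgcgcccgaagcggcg
This window held 1 GC box and 2 CCAAT matches at 66.3% GC. Rae1 stood at 9.7, 10.6 and 9.7 FPKM across WT1 to WT3 and at 10.1, 14.6, 11.9 and 10.3 FPKM across KO1 to KO4 (limma log2 fold change 0.2, adjusted p = 0.55).

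The outer ring, or Y complex, which forms the scaffold on both faces of the pore, gave 0 calls among 6 tested genes, with 5 positive fold changes, 1 negative and a median of 0.22. Nup43, a propeller subunit of that complex, stood at 1.9, 3.7 and 3.1 FPKM across WT1 to WT3 and at 3.5, 4.3, 4.9 and 5.7 FPKM across KO1 to KO4. The groups overlapped at WT2 and KO1, and the fold change was 0.54 (SE 0.22, limma adjusted p = 0.21). Nup37 had the widest confidence interval of the 47 genes (-0.13 to 1.53 around 0.7), with 0.3 FPKM in WT1 beside 2.9 and 2.0 FPKM in WT2 and WT3. Nup85, the most abundant of the 6, was lower in each KO library, with 4.8, 4.8 and 5.8 FPKM in WT and 3.6, 4.7, 4.0 and 3.1 FPKM in KO (fold change -0.35, limma adjusted p = 0.33). WT1 was the lowest WT library for Nup37, Nup43, Nup107, Nup133 and Nup160, and without WT1 the fold change of Nup43 was 0.34 (adjusted p = 0.54).

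The inner ring, which anchors the pore in the membrane and the channel in the pore, showed small differences. Its 5 genes had fold changes of -0.28 to 0.1 and a summed WT level of 16.5 ± 0.7 FPKM (SD, n = 3) beside 15.7 ± 1.27 FPKM for KO (SD, n = 4). Nup93, its most abundant gene, stood at 8.9, 7.4 and 7.5 FPKM across WT1 to WT3 and at 8.0, 6.9, 6.7 and 6.6 FPKM across KO1 to KO4 (-0.15, limma adjusted p = 0.65, and -0.07 without WT1). Nup188 had the smallest p of the 5, with 1.23 ± 0.416 FPKM for WT and 0.825 ± 0.206 for KO (-0.28, adjusted p = 0.5). Levels near 1 FPKM lie close to the rounding step of 0.1 FPKM, and a pseudocount of 1 understates their fold. Of the Nup35 31-mers, 43.0% occur in other genes, so its level is uncertain.

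The channel and the nuclear basket gave 0 calls among their 4 tested genes. Nup98, also a channel nucleoporin, was not among these 4 and had the deposited call given above. Nup62, the central channel protein, stood at 19.3, 15.9 and 12.3 FPKM across WT1 to WT3 and at 7.4, 12.2, 14.4 and 13.4 FPKM across KO1 to KO4 (fold change -0.41, SE 0.23, limma adjusted p = 0.35). The lowest value was that of KO1 and the highest that of WT1, the reverse of Ranbp2, and the fold change was -0.21 without KO1, -0.26 without WT1 and -0.07 without both. Nup54, its partner in the channel, had 4.17 ± 1.45 FPKM for WT and 5.12 ± 1.69 for KO. Nup50, a basket protein that helps to release importin alpha, stood at 16.0, 13.4 and 12.3 FPKM across WT1 to WT3 and at 11.5, 15.2, 15.5 and 15.7 FPKM across KO1 to KO4 (0.05, adjusted p = 0.89). Nup153, which tethers the basket, had 4.8 ± 1.47 FPKM for WT and 5.62 ± 1.42 for KO, and its fold change of 0.2 turned to -0.03 without WT1. Nup210, a pore protein that spans the membrane, stood at 1.03 ± 0.115 FPKM for WT and 1.1 ± 0.383 for KO.

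On the cytoplasmic side, neither of the other 2 tested genes had a difference that left 0 out of its confidence interval. Nup88 had the highest mean over the 7 libraries among the 19 tested nucleoporins of the rule. It stood at 17.0, 21.6 and 15.5 FPKM across WT1 to WT3 and at 17.3, 19.2, 19.1 and 14.2 FPKM across KO1 to KO4 (fold change -0.04, 95% confidence interval -0.41 to 0.33, limma adjusted p = 0.92). Nup214, its partner in mRNA export, stood at 3.7, 3.8 and 3.8 FPKM over the WT libraries and at 3.6, 4.1, 3.0 and 3.0 FPKM over the KO libraries (-0.11, adjusted p = 0.77). The ratio of Ranbp2 to Nup214 was 1.22, 2.26 and 2.58 across WT1 to WT3 and 9.78, 3.88, 5.1 and 4.37 across KO1 to KO4, a ratio chosen after the values were seen and not tested.

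**Figure D4:**
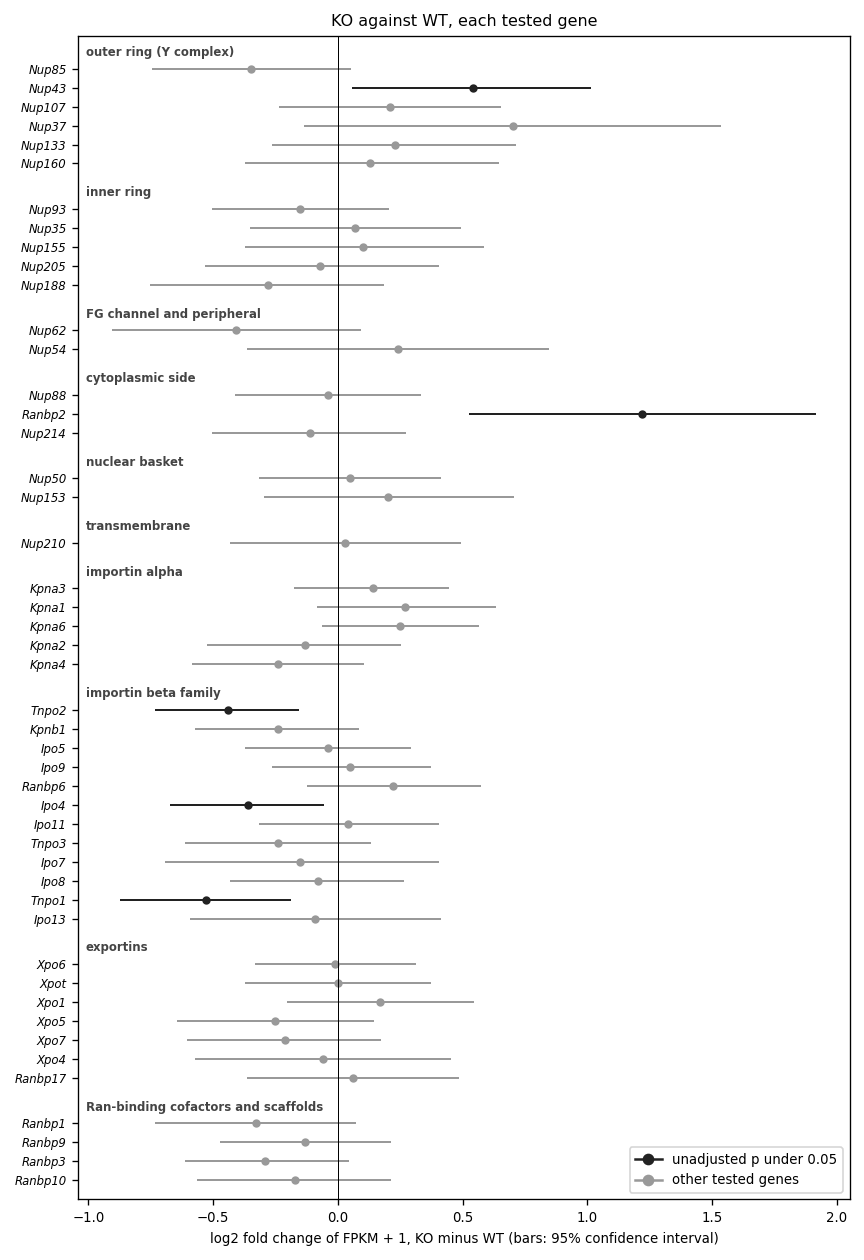
Log2 fold change (KO minus WT) with its 95% confidence interval from limma for the 47 tested genes, grouped by role; black marks an unadjusted p under 0.05. The intervals of Ranbp2, Nup43, Tnpo1, Tnpo2 and Ipo4 leave out 0, and none of the 5 passed after adjustment over all rows.

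Importin alpha proteins bind the classical nuclear localization signal and link it to importin beta. Of 6 genes, 5 were expressed, with means between 14.7 and 22.6 FPKM, and 0 passed. Kpna3 (22.6 FPKM over the 7 libraries) and Kpna1 (22.3 FPKM) did not differ in order beyond their spread, since Kpna3 was above Kpna1 in 2 of 7 libraries. Kpna6 (20.0 FPKM) was above Kpna2 (18.7 FPKM) in 3 of 7, and Kpna2 was above Kpna4 (14.7 FPKM) in 7 of 7 libraries. Kpna6 stood at 18.1, 17.1 and 18.6 FPKM across WT1 to WT3 and at 21.7, 23.4, 19.0 and 22.1 FPKM across KO1 to KO4, with no overlap of the groups (fold change 0.25, SE 0.14, limma adjusted p = 0.36). Kpna3 had 21.3 ± 0.551 FPKM for WT and 23.5 ± 1.99 for KO (0.14, adjusted p = 0.63, and 0.09 without KO3). In Kpna2, 66.0% of the 31-mers occur in other genes, so its level is uncertain.

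The importin beta family gave 9 negative and 3 positive fold changes among 12 genes, with a median of -0.12 and 0 calls. Their summed level was 215.8, 226.0 and 239.0 FPKM across WT1 to WT3 and 223.4, 198.3, 190.4 and 186.0 FPKM across KO1 to KO4, so that KO1 lay inside the WT range. Tnpo2 (42.4 FPKM), Kpnb1 (28.9 FPKM) and Ipo5 (23.8 FPKM) led in that order in 7 of 7 libraries. Kpnb1, the importin beta that carries importin alpha with its cargo, stood at 34.2, 29.0 and 32.2 FPKM across WT1 to WT3 and at 29.2, 27.2, 28.4 and 22.3 FPKM across KO1 to KO4 (fold change -0.24, limma adjusted p = 0.4). The other 9 lay between 8.47 FPKM for Ipo13, which works in both directions, and 16.4 FPKM for Ipo9, an importer of histones and actin, and each pair of neighbours among them crossed in at least 1 library. Ipo4, an importer of histones, was named after its values were seen, as the fifth gene with an unadjusted p under 0.05. It stood at 18.6, 17.2 and 16.8 FPKM across WT1 to WT3 and at 14.1, 13.2, 12.8 and 13.5 FPKM across KO1 to KO4, with no overlap (fold change -0.36, SE 0.14, limma adjusted p = 0.19, p = 0.0571 in the exact permutation). In Ipo4, 53.1% of the 31-mers occur in other annotated genes, above all in Gm49378, which overlaps it on the same strand, so the 2 loci could share reads. Ipo7, an importer of ribosomal proteins, was the most variable of the family among the KO libraries, with 19.1, 11.6, 9.9 and 7.8 FPKM across KO1 to KO4.

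Exportins carry proteins and RNAs out of the nucleus together with Ran, and none of the 7 tested genes of this group had an unadjusted p under 0.05. Xpo6, the exporter of actin, was the most abundant, with 36.5, 35.2 and 47.2 FPKM across WT1 to WT3 and 40.2, 37.7, 38.1 and 39.9 FPKM across KO1 to KO4 (fold change -0.01, 95% confidence interval -0.33 to 0.31, limma adjusted p = 0.97). It stood above Xpot, the tRNA exporter (16.1 FPKM), in 7 of 7 libraries, and Xpot above Xpo1, the general exporter of proteins with leucine-rich signals (10.4 FPKM), in 7 of 7. Xpo1 and Xpo5, the exporter of microRNA precursors (9.2 FPKM), crossed in 2 libraries, with Xpo1 above in 5 of 7. Xpo5 had the smallest p of the group, at 8.3, 10.4 and 12.0 FPKM in WT and 9.9, 8.1, 6.9 and 8.8 FPKM in KO (-0.25, SE 0.18, adjusted p = 0.47), and its fold change was -0.14 without WT3 and -0.38 without WT1. Xpo4 (1.76 FPKM) and Ranbp17 (1.67 FPKM) were the lowest. In Xpot, 22.7% of the 31-mers occur in other genes.

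The Ran-binding cofactors and scaffolds had 4 negative fold changes among 4 genes and a median of -0.23, with 0 calls. Ranbp1, which helps the GTPase activating protein to switch Ran off, stood at 68.7, 73.8 and 71.4 FPKM across WT1 to WT3 and at 41.1, 66.1, 70.5 and 52.9 FPKM across KO1 to KO4. Its lowest value was again that of KO1, the groups overlapped at KO3, and the fold change was -0.33 (SE 0.18, limma adjusted p = 0.35), or -0.18 without KO1. Of the Ranbp1 31-mers, 18.7% occur in other genes. Gm49776 overlaps it by 281 bases on the same strand, so the 2 loci could share reads. Ranbp3, a cofactor of Xpo1, stood at 13.4, 13.1 and 12.1 FPKM over the WT libraries and at 9.5, 11.7, 10.1 and 10.2 FPKM over the KO libraries, with no overlap (-0.29, SE 0.15, adjusted p = 0.32). Ranbp9 and Ranbp10, scaffolds of a ubiquitin ligase complex, had means of 25.5 and 4.37 FPKM and fold changes of -0.13 and -0.17.

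Other genes of the pore and of the Ran cycle were described from a list of related genes that the rule did not take, and 0 of its 34 tested genes passed. At an unadjusted p under 0.05 limma found 6 of the 34 (17.6%, beside 18.8% of all tested rows), 3 with higher and 3 with lower means in KO, and the median fold change was 0.02. Seh1l, an outer ring subunit that also belongs to a nutrient-sensing complex, had the smallest p, with 7.0, 8.7 and 7.8 FPKM across WT1 to WT3 and 13.0, 16.2, 11.5 and 10.7 FPKM across KO1 to KO4. The groups did not overlap, and the fold change was 0.64 (SE 0.18, limma adjusted p = 0.092, p = 0.0571 in the exact permutation). Eny2, a small subunit of an mRNA export complex at the pore, stood at 37.1, 35.3 and 34.2 FPKM over the WT libraries and at 44.5, 55.2, 53.3 and 41.5 FPKM over the KO libraries (0.43, adjusted p = 0.16). Nxf1, the main mRNA export receptor, stood at 14.8, 14.3 and 12.8 FPKM over the WT libraries and between 9.9 and 11.5 FPKM in KO (-0.39, adjusted p = 0.19). Rangap1, the activating protein of the Ran GTPase, had overlapping values of 129.8, 136.5 and 87.4 FPKM in WT and 64.8, 83.9, 108.2 and 80.1 FPKM in KO (-0.48, adjusted p = 0.23). With GC and length trends removed, the fold changes were 0.46 for Seh1l, 0.18 for Eny2, -0.35 for Nxf1 and -0.38 for Rangap1. Ran itself stood at 279.9, 291.7 and 242.5 FPKM over the WT libraries and at 215.5, 273.2, 331.2 and 259.1 FPKM over the KO libraries (-0.02, 95% confidence interval -0.41 to 0.37). Of the Ran 31-mers, 18.8% occur in other genes. With array weights, 5 of the 34 passed: Seh1l and Eny2 with higher, and Nxf1, Ddx19b and Nupl1 with lower values in KO, where 16.7% of all rows passed. In Nupl1, 55.1% of the 31-mers occur in other genes.

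Single libraries often lay at the edge of their group. WT1 was the lowest WT library for 28 of the 47 genes (59.6%, beside 52.3% of all tested rows) and KO1 the highest KO library for 22 (46.8%, beside 30.2%). KO4 was the lowest KO library for 17 of the 47 genes (36.2%, beside 25.2%). Across the 47 genes, the difference of KO1 from the other KO libraries rose with transcript length (Spearman's rho 0.51) and that of KO3 fell (-0.58), as over the 10023 annotated tested rows (0.46 and -0.43). These correlations run across genes of the same libraries and are a description. The median standard error of the fold change was 0.18 for the 47 genes, beside 0.2 over all tested rows. The median size of the fold change was 0.17 for the 47 genes, beside 0.22 over all tested rows.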

How the data were processed

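Ribosome-bound RNA of cholinergic cells was amplified from small amounts, made into libraries and sequenced, per the labels' protocols. Per the submitters' processing notes, TopHat2 2.0.8, Cufflinks 2.1.1, DESeq 1.10.1 and the mm10 build were used; no annotation or strand setting is given in those notes. The authors deposited FPKM per gene and library, rounded to 1 decimal, so that the depth is unknown and a value listed at 0.0 can be a small one. Summed FPKM ran from 379417 to 511328 per library. For Nup98 the authors' deposited table held the ratio of KO to WT, that fold in log2, and p-values before and after adjustment. It also held the mean FPKM of WT and of KO, which are not given here, so the fold stands without its levels.

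From the FPKM, limma 3.58.1 (R 4.3.3, empirical Bayes with trend) compared 4 KO with 3 WT libraries on log2(FPKM + 1) over the 10089 of 22016 rows that averaged 1 FPKM or more. P-values were adjusted by Benjamini-Hochberg over these rows, with a threshold of 0.05. The pseudocount understates the fold of low genes. Exact two-sided permutation tests enumerated the 35 assignments of 3 and 4 labels and doubled the p of the smaller tail. Genes were located in GENCODE M21 (GRCm38), which held 50 of the 51 genes, and sharing of 31-mers was counted over its transcripts. The fit was tested on simulated data.

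In each role group the most abundant gene and the one with the smallest p were named, with the 4 smallest p of the related list; the remaining genes named were chosen after their values were seen. Members, lists and marker lists were chosen with earlier results of these data known. Same-numbered WT and KO libraries were not treated as pairs. The alternatives changed the pseudocount, the filter, the scaling, the weights, the trend, a replicate block, rows sharing a symbol, GC and length trends, and left out each library in turn. Leaving out WT1 and KO1 together was chosen after seeing the data.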

Additional observations from a re-analysis of the deposited data

Results flagged for a closer look

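The KO groups of the 47 tested genes and of the 4 named genes of the related list were looked at. In 5 of these 51, 1 KO library stood apart from the other 3, by a gap that passed Dixon's critical value at 95% for 4 values. Chance alone flags some groups at this limit. Ranbp2 was at 35.2 FPKM in KO1, where the other KO libraries had 13.1 to 15.9 FPKM. Nup50 was at 11.5 FPKM in KO1 against 15.2 to 15.7 FPKM. Tnpo2 was at 34.6 FPKM in KO3 against 37.1 to 37.6 FPKM, a gap that is small beside the WT level. Nup107 was at 4.0 FPKM in KO3 against 2.9 to 3.0 FPKM, and Ranbp10 at 4.5 FPKM in KO4 against 3.9 to 4.0 FPKM.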

How the results depend on the processing

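The count of 0 calls among the 47 genes was 4 with array weights, 2 with GC and length trends removed and 0 to 1 with each library left out in turn (1 without KO1), and it was 0 under the other alternatives run. In the related list it was 5 with array weights and 0 otherwise. S100a10 kept its direction everywhere, with a fold change of -1.22 under the replicate block (limma adjusted p = 0.083). With a library left out its fold change was -1.58 to -1.22, and it missed the threshold without WT1 (-1.44) and without WT2 (-1.44). KO4 has no WT library of its number, so for genes tested in both, the replicate block gives the same fold changes as leaving out KO4. Same-numbered libraries were not alike in their deviations (r = -0.2, -0.02 and -0.3 for numbers 1 to 3), and with the replicate block 0 of the 47 genes and 18 of all rows passed, against 176 in the main comparison. Over all rows the count was 1689 with array weights, 83 with no filter on low values, 100 without the trend, and 28 (without WT2) to 376 (without KO1) with a library left out. The median fold change of the 47 genes ran from -0.07 to 0.01 with a library left out and was -0.12 without WT1 and KO1 together, against -0.04 in the main comparison. Small fold changes turned sign: Nup210 under quantile normalization (-0.02), array weights (-0.0049), the replicate block (-0.08) and a library left out (-0.02 to 0.1); Nup153 under array weights (-0.08), a library left out (-0.03 to 0.33) and without WT1 and KO1 together (-0.17). Xpo6 turned under array weights (0.03) and with a library left out (-0.09 to 0.12), Nup88 under the replicate block (0.05) and with a library left out (-0.14 to 0.09), Kpna3 with GC and length trends removed (-0.07) and Nup50 with a library left out (-0.03 to 0.15). The causes were not tested. Nup43, Nup85, Nup188 and Nup210 fell below the filter under some alternatives and have no value there. Values near 1 FPKM are limited by the rounding to 0.1 FPKM.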
